A study of Mus musculus with 7 samples.

Results

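Slc9a3 encodes NHE3, the sodium-hydrogen exchanger of the intestinal brush border. It was studied here with 7 other genes of sodium and chloride movement across the epithelium, Slc9a2, Slc9a3r1, Slc26a3, Slc26a6, Cftr, Atp1b1 and Slc12a2. The set was chosen by function around Slc9a3, and Slc9a3 itself was selected on its measured values in penicillin and control mice. Its values in that comparison are therefore given as a description. A probe set, a group of short oligonucleotides read together as 1 value, was taken when the platform annotation named 1 member and no other gene. This gave 21 probe sets for the 8 genes, out of 34945 probe sets for 18193 genes in all, and 6 of the 8 genes had several.

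The penicillin group was 4 male C57BL6J mice given penicillin at 6.7 mg/L from birth, and the control group was 3 male C57BL6J mice given no antibiotic. All mice were weaned onto chow at 4 weeks and moved to a diet with 45% kcal from fat at 6 weeks. Terminal ileum is the labelled tissue, at 8 weeks, although the growth text speaks of livers. The labels call the mice biological replicates and do not name litters or cages, so a litter or cage effect and penicillin cannot be told apart. Whole ileum holds several cell types, so fewer cells of a type and less RNA per cell cannot be told apart. The ileal bile acid carrier Fabp6 lay between 14.28 and 14.64 on the log2 scale in the 7 arrays, near the top of the scale. The other ileal enterocyte genes listed, Slc10a2 and Fgf15, varied more. Slc10a2 read 11.25 to 11.44 in penicillin mice and 10.99, 10.71 and 9.91 in control replicates 1 to 3. Fgf15 lay between 6.98 and 8.73 in penicillin mice and between 7.49 and 9.45 in control mice. Control replicate 3 stood apart. There the colonocyte carbonic anhydrase Car1 read 14.10, against 5.11 to 10.82 in the other arrays, and the colonic water channel Aqp8 read 8.27, against 3.86 to 4.29. Of the 6 colon genes listed, each in its set with the highest mean, this array was the highest of 7 in 3 (Car1, Aqp8 and Hoxd10) and the lowest in 2 (Hoxb13 and Hoxd13). The sixth, Car4, was at 11.54 there, inside the range of the others. Hoxb13 and Hoxd10 lay under 4.24, the 25th percentile of the tested probe sets, and Hoxd13, at 4.30 to 4.74, just above it. The ranks of these Hox genes were thus read near the bottom of the scale. In control replicate 3 also, 8 of 8 enterocyte marker genes had their lowest value. Results that rest on this array are given with and without it.

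The small intestine absorbs sodium chloride mainly by paired exchange at the brush border. Slc9a3 takes up sodium for protons while Slc26a3 and Slc26a6 take up chloride for bicarbonate, and Slc9a3r1 (NHERF1) tethers these carriers to the membrane skeleton. The sodium pump, of which Atp1b1 is the beta subunit, keeps cell sodium low. In crypt cells Slc12a2 (NKCC1) loads chloride from the blood side and the channel Cftr lets it out, which drives fluid secretion.

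The sequence before the transcription start is shown for Slc9a3, which had 1 probe set that differed between the groups, and for its chloride-exchanging partners Slc26a3 and Slc26a6, whose levels are set against it below. The stretches are the 250 bases before the start in the RefSeq promoter table, build GRCm38.p6, which matched 6 of the 8 members by symbol. Capitals mark GGGCGG (the GC box), CCAAT and TATAAA, each searched on both strands. No 2 different motifs overlapped in the stretches printed.

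Slc9a3, chr13:74121163-74121412, plus strand: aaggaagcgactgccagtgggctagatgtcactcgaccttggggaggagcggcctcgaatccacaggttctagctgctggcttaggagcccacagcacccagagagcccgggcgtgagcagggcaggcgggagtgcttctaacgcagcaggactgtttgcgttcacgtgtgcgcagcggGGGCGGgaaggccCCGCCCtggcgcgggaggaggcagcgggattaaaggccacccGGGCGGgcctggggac

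Slc26a3, chr12:31437969-31438218, plus strand: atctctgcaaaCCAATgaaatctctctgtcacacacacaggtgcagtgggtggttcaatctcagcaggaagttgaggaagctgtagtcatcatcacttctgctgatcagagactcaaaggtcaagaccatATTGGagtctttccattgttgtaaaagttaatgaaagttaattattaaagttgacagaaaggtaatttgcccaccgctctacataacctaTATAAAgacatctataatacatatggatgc

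Slc26a6, chr9:108853793-108854042, plus strand: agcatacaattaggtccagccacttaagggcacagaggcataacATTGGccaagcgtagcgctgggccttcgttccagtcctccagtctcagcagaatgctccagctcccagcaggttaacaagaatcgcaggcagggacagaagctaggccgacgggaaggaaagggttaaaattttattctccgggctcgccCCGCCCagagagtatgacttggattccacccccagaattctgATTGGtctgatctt

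The Slc9a3 stretch held 3 GC boxes, no CCAAT and no TATAAA, and 67.6% of its bases were G or C. The Slc26a3 stretch held 0 GC boxes, 2 CCAAT and 1 TATAAA, at 38.8% G or C. The Slc26a6 stretch held 1 GC box and 2 CCAAT, at 53.2%. Over all 32851 stretches of this length, 32.7% held a GC box, 33.8% CCAAT and 12.4% TATAAA, and the median G and C content was 52.4%. These are matches of letters and do not show that a factor binds.

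Slc9a3 was lower in penicillin mice in 1 of its 2 probe sets. The set with the higher signal, 1441236_at, read 7.004, 6.71, 6.84 and 6.67 on the log2 scale in penicillin replicates 1 to 4, against 8.04, 7.72 and 7.89 in control replicates 1 to 3. Every penicillin mouse was below every control mouse, with a gap of 0.71 between the highest penicillin and the lowest control value. The means were 6.81 ± 0.15 in penicillin mice (SD, n = 4) and 7.88 ± 0.16 in control mice (SD, n = 3), so that the set fell by 1.08 ± 0.10 (SE), a 2.11-fold difference. Without control replicate 3 the difference was -1.07 ± 0.12 (SE). The spread was alike in both groups. Slc9a3 was selected on this contrast, so the size of its difference against that spread is a description only.

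The other Slc9a3 set, 1432771_at, had groups that overlapped. It read 4.08, 3.95, 4.10 and 3.89 in penicillin mice, against 3.97, 3.97 and 3.86 in control mice. The difference was 0.072 ± 0.070 (SE), and 0.036 without control replicate 3. This set lay under the 25th percentile of the tested probe sets, which was 4.24. The deposited values carry no detection call, so whether it is above background is not known. Averaging both sets of Slc9a3 gave a difference of -0.50 ± 0.077 (SE). In the RefSeq gene table Gm41003, a long noncoding RNA, overlaps Slc9a3. The probe sequences were not used here, so which part of the locus each set reads, and whether Gm41003 contributes, was not tested.

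In the limma fit over all 34945 probe sets, with a set called at a Benjamini-Hochberg adjusted p under 0.05, 1 of the 21 member sets was called, Slc9a3 1441236_at, which was lower. Of all probe sets tested 0.0429% were called lower and 0.00286% higher. Since this contrast chose Slc9a3, nothing is read from that count. The member call was lost in each of the 7 fits that left out 1 array, whichever array it was, while the difference stayed between -1.16 and -0.999. Groups did not overlap for 1 of the 21 sets with penicillin below control and for 0 with penicillin above, where 3.96% and 3.77% of all probe sets had these arrangements.

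**Figure D1:**
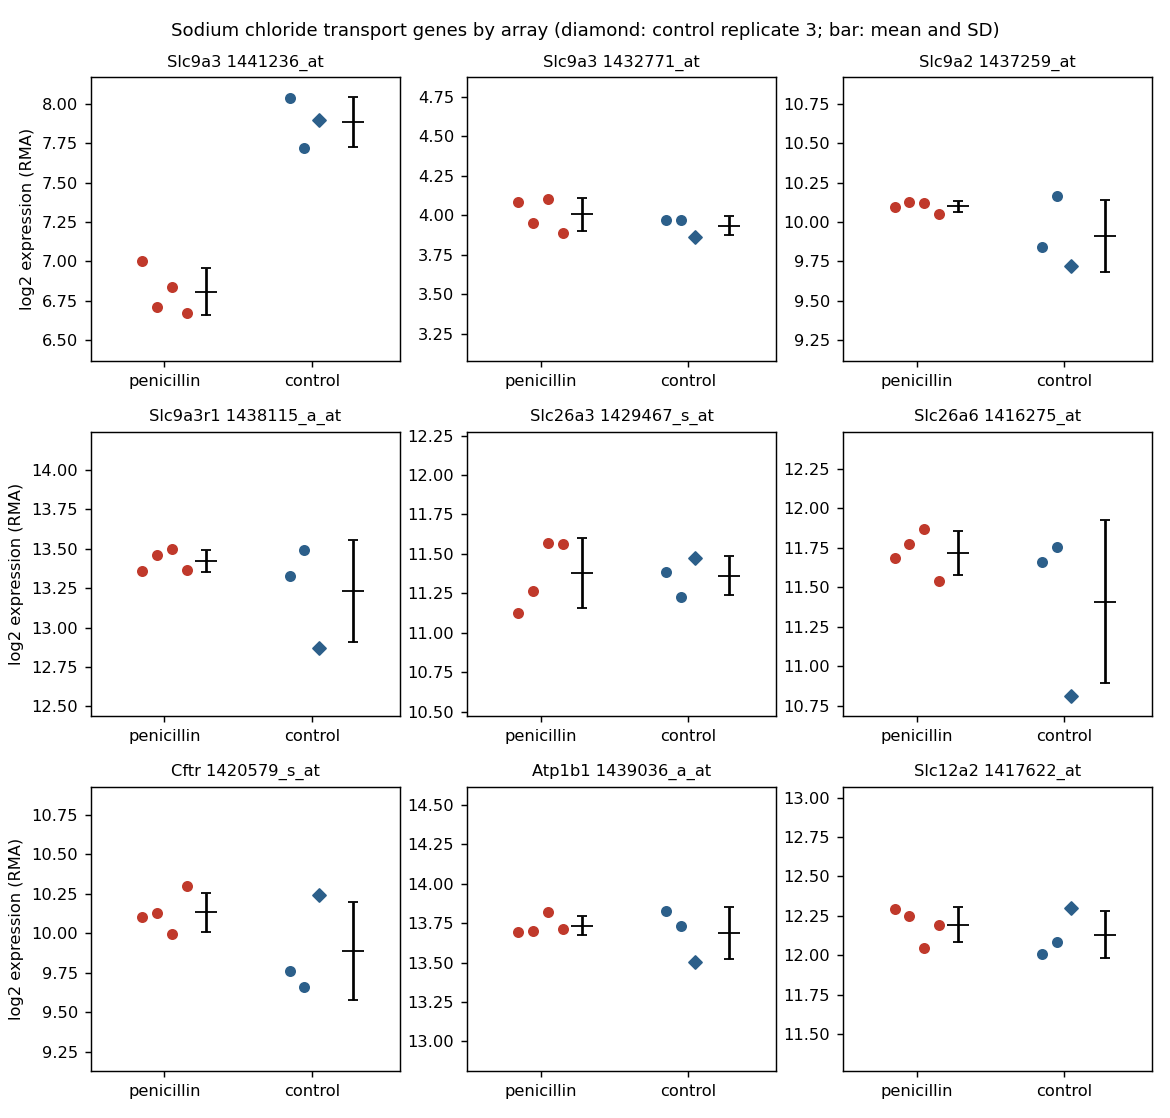
Log2 expression (y axis, 1 panel per probe set, each with its own range) of Slc9a3, in both of its sets, and of the other 7 genes, in the set with the highest mean, for 4 penicillin (left) and 3 control mice (right). Points are mice, the diamond is control replicate 3 and bars are mean and SD. The groups are apart in Slc9a3 1441236_at, at 6.67 to 7.004 against 7.72 to 8.04, and overlap in the other panels.

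T cell markers had lower values in penicillin mice, as Slc9a3 did. The mean log2 level of 5 such genes (Cd3d, Cd3e, Cd3g, Cd8a and Ptprc, the last shared with other leukocytes) lay between 6.45 and 6.84 in penicillin mice and between 7.10 and 7.28 in control mice. Each of the 10 T cell probe sets had a lower mean in penicillin mice, and 0 of the 10 were called. Their median difference was -0.45, and -0.46 without control replicate 3. In 6 of the 10, some of them sets of the same gene, every penicillin mouse was below every control mouse. Of all probe sets 3.96% had this arrangement. The direction was not particular to T cells. Each of the 7 smooth muscle probe sets also had a lower mean in penicillin mice, with groups that overlapped, and 0 were called. Their median difference was -0.16, and -0.26 without control replicate 3. Enterocyte markers had higher values in penicillin mice, with groups that overlapped. Each of the 12 enterocyte probe sets had a higher mean there, by 0.13 to 0.90, and 0 of the 12 were called. Their median difference was 0.37 with all arrays and 0.057 without control replicate 3, where 2 sets had a lower mean. The mean of 8 enterocyte genes lay between 11.75 and 12.50 in penicillin mice. It was 11.82, 11.92 and 11.17 in control replicates 1 to 3. Vil1, villin of the microvilli, was at 13.36 to 13.42 in penicillin mice and at 13.38, 13.45 and 12.82 in control mice. The part of cell make-up in the Slc9a3 difference was not tested.

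Slc9a2 (NHE2), the second brush border exchanger, had groups that overlapped. Its only set, 1437259_at, read 10.10, 10.13, 10.12 and 10.05 in penicillin mice and 9.84, 10.17 and 9.72 in control mice. Control mice lay both above and below all penicillin mice. The difference was 0.19 ± 0.10 (SE), or 0.093 ± 0.091 without control replicate 3.

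Slc9a3r1, the scaffold that holds NHE3 at the membrane, was read by 3 sets that moved together. The highest, 1438115_a_at, was at 13.36, 13.46, 13.50 and 13.37 in penicillin mice and at 13.33, 13.49 and 12.87 in control mice. Set 1450982_at read 11.57, 11.69, 11.81 and 11.60 in penicillin mice and 11.61, 11.89 and 10.83 in control mice. In all 3 sets control replicate 3 was the lowest of the 7 arrays, 0.51 to 0.86 below the mean of the others. The enterocyte markers were lowest in the same array, and their part in these values was not tested. The differences of 0.19 ± 0.14 (1438115_a_at), 0.19 ± 0.13 (1438116_x_at) and 0.22 ± 0.22 (1450982_at, all SE) became 0.010, 0.022 and -0.082 without that array. Levels above 13 lie near the top of the scale, which ended at 14.7, and differences can be compressed there.

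Slc26a3 (DRA), the chloride-bicarbonate exchanger that works beside NHE3, had close to equal group means. Its highest set, 1429467_s_at, read 11.13, 11.27, 11.57 and 11.56 in penicillin mice and 11.39, 11.23 and 11.47 in control mice. The 4 penicillin mice spanned more than the control mice and covered their range. Set 1421445_at gave the same picture, at 9.73, 9.93, 10.30 and 10.19 in penicillin mice and 10.01, 9.97 and 10.12 in control mice. In both sets penicillin replicate 1 was below all control mice and replicates 3 and 4 above them. Differences over the 4 sets ran from -0.046 ± 0.11 for 1453151_at to 0.052 ± 0.058 for 1427547_a_at (SE). For 1429467_s_at the difference was 0.017 ± 0.12 and for 1421445_at it was 8.8e-04 ± 0.13 (SE). Without control replicate 3 the 4 sets differed by 0.072 (1429467_s_at), 0.045 (1421445_at), 0.060 (1427547_a_at) and -0.097 (1453151_at). In this platform's naming an ending in _s_at marks probes that more than one transcript can share, and _x_at marks probes that may cross-hybridise.

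Slc26a6 (PAT1), an apical exchanger of chloride, bicarbonate and oxalate, had the highest difference of the 21 sets, and that value came with 1 array. Set 1416275_at read 11.68, 11.77, 11.87 and 11.54 in penicillin mice and 11.66, 11.75 and 10.81 in control mice. Control replicate 3 was 0.90 below the mean of the other 6 arrays, and the remaining control mice lay inside the penicillin range. The difference was 0.31 ± 0.21 (SE) with all arrays and 0.0097 ± 0.096 without control replicate 3.

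Atp1b1, the sodium pump subunit, was read by 5 sets. The highest, 1439036_a_at, read 13.69, 13.70, 13.82 and 13.72 in penicillin mice and 13.83, 13.73 and 13.50 in control mice. Set 1418453_a_at read 12.73, 12.69, 12.77 and 12.70 in penicillin mice and 12.79, 12.81 and 12.32 in control mice. In this set both other control mice were above all penicillin mice. Control replicate 3 gave the lowest value in 4 of the 5 sets. Differences of those 4 lay between 0.045 and 0.084 with all arrays. Without that array they were -0.045 (1439036_a_at), -0.034 (1423890_x_at), -0.032 (1451152_a_at) and -0.073 (1418453_a_at). The dimmest set, 1455949_at, differed by 0.071 ± 0.070 (SE), and by 0.11 without that array.

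**Figure D2:**
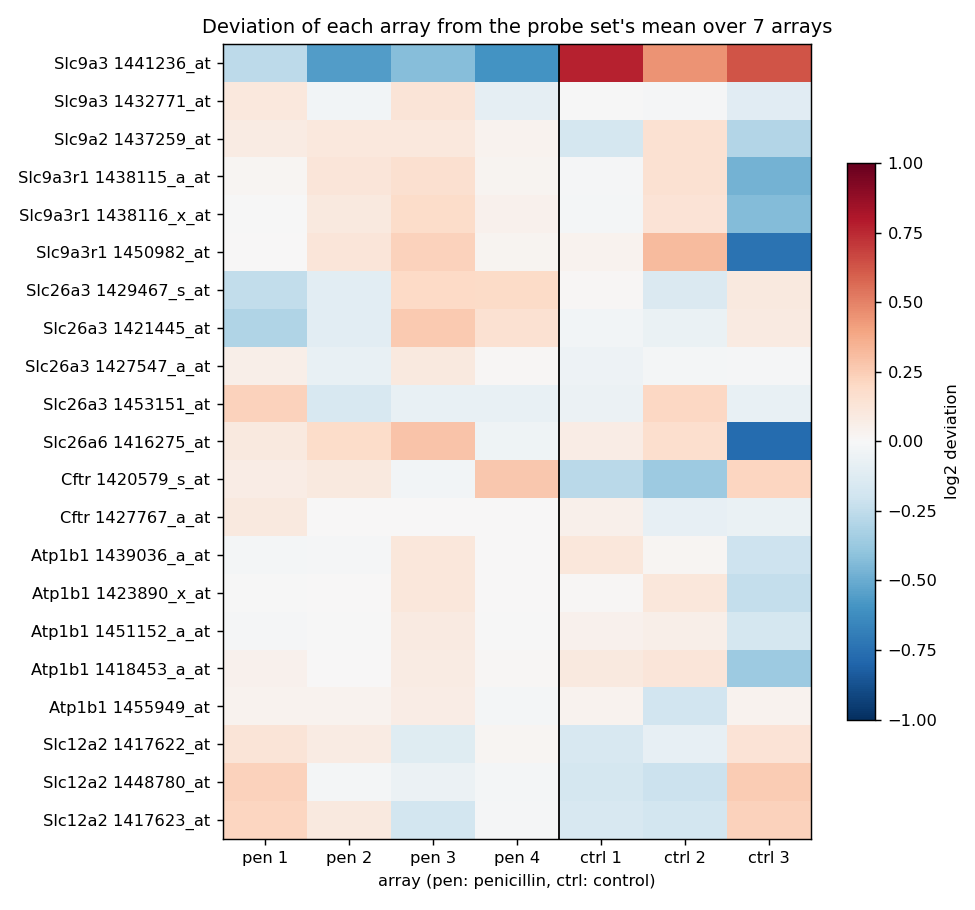
Deviation of each array (columns, penicillin left and control right) from the mean over 7 arrays, in log2 units by colour, for the 21 probe sets (rows). Slc9a3 1441236_at is below its mean in 4 penicillin arrays and above it in 3 control arrays, and Slc9a3r1, Slc26a6 and 4 sets of Atp1b1 have their lowest value in control replicate 3.

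The secretory genes varied the other way in control replicate 3. Cftr, the chloride channel, was read by 1420579_s_at at 10.11, 10.13, 9.998 and 10.30 in penicillin mice and at 9.76, 9.66 and 10.24 in control mice. Control replicate 3 fell among the penicillin values, and the other control mice were below all of them. The difference was 0.24 ± 0.14 (SE), and 0.42 ± 0.089 without control replicate 3, an estimate from 2 control mice whose set was not called. The second Cftr set, 1427767_a_at, lay between 3.31 and 3.40 in penicillin mice and between 3.22 and 3.35 in control mice, near the bottom of the scale.

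Slc12a2 (NKCC1), which loads chloride for secretion, was highest of the 7 arrays in control replicate 3 in all 3 of its sets. Set 1417622_at read 12.30, 12.25, 12.04 and 12.19 in penicillin mice and 12.01, 12.08 and 12.30 in control mice. Set 1448780_at read 10.79, 10.54, 10.50 and 10.54 in penicillin mice and 10.38, 10.35 and 10.81 in control mice. There the other control mice were below all penicillin mice. The differences were 0.063 ± 0.089 (1417622_at), 0.079 ± 0.12 (1448780_at) and 0.067 ± 0.13 (1417623_at, all SE). Without control replicate 3 they were 0.15, 0.23 and 0.20, and none was called.

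Over the 21 sets the median difference was 0.067, and 19 had a higher mean in penicillin mice. Over all 34945 probe sets the median was 0.0021 and 49.1% had a lower mean in penicillin mice. Without control replicate 3 the member median was 0.036, 7 sets had a lower mean in penicillin mice, and 15 of the 21 lay within 0.1 of 0, against 62.5% of all probe sets. Control replicate 3 held the lowest of the 7 values in 10 member sets and the highest in 3, where over all probe sets these shares were 20.1% and 22.7%. After the low-value filter at the 25th percentile 19 of the 21 sets remain. The 2 under it are 1432771_at of Slc9a3 and 1427767_a_at of Cftr.

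**Figure D3:**
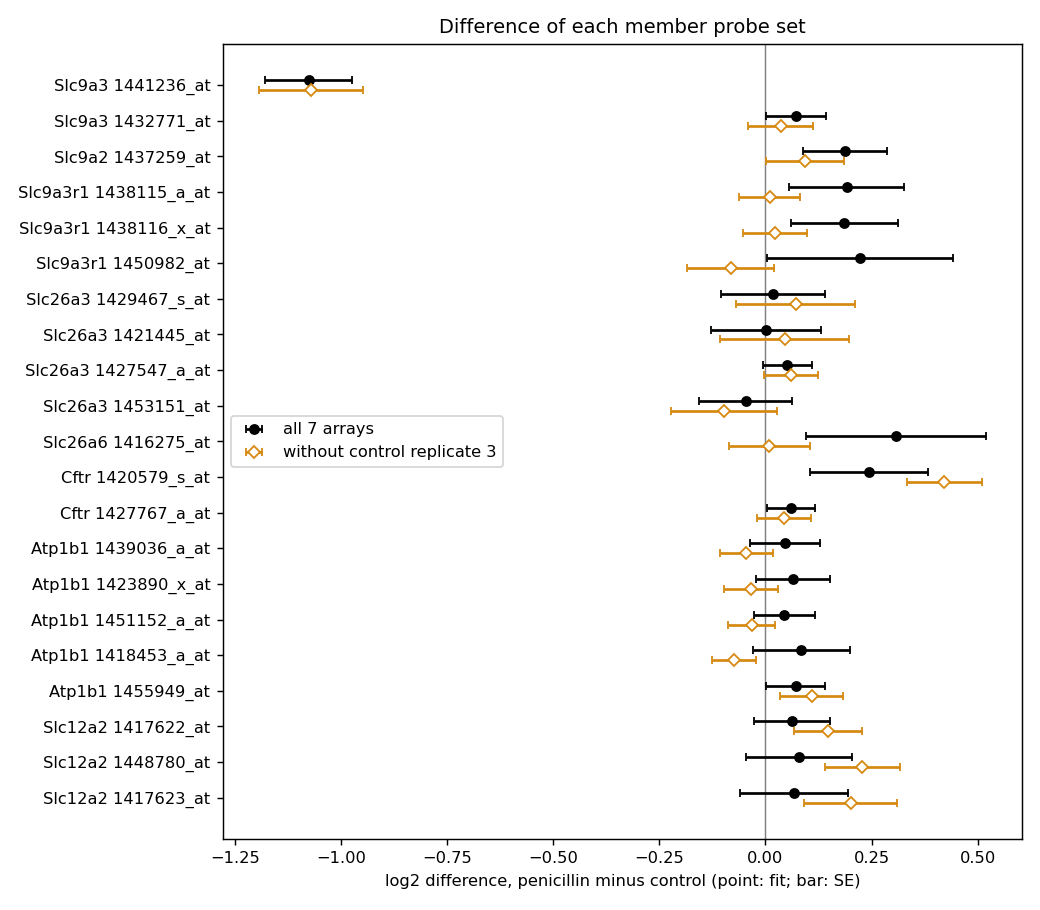
Log2 difference, penicillin minus control, of each of the 21 probe sets (x axis; bars are SE), with all 7 arrays (filled) and without control replicate 3 (open). Slc9a3 1441236_at lies near -1.08 and -1.07, and the sets of Slc9a3r1 and Slc26a6 move to within 0.1 of 0 in the second fit.

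The genes whose array values were most like those of Slc9a3 1441236_at were found among 14582 other genes, each in the set with the highest mean above the 25th percentile. Likeness was the root mean square distance, in log2 units over the 7 arrays, between profiles centred on their own means. The nearest was Nfkbiz, an inducible regulator of NF-kB, at 0.16. It read 9.26, 9.501, 9.29 and 9.14 in penicillin mice and 10.44, 10.10 and 10.17 in control mice. Mptx1, mucosal pentraxin 1, and Ikzf3, a lymphocyte transcription factor, followed at 0.22 each. H2-Aa, an MHC class II alpha chain, was at 0.24 and Gimap7, a GTPase of lymphocytes, at 0.25. The ranking favours genes with a like difference between the groups, which ran from -1.14 to -0.76 in these 5. Among the other member sets the distance from Slc9a3 1441236_at was 0.54 to 0.76, and it was 0.58 for the second set of Slc9a3.

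**Figure D4:**
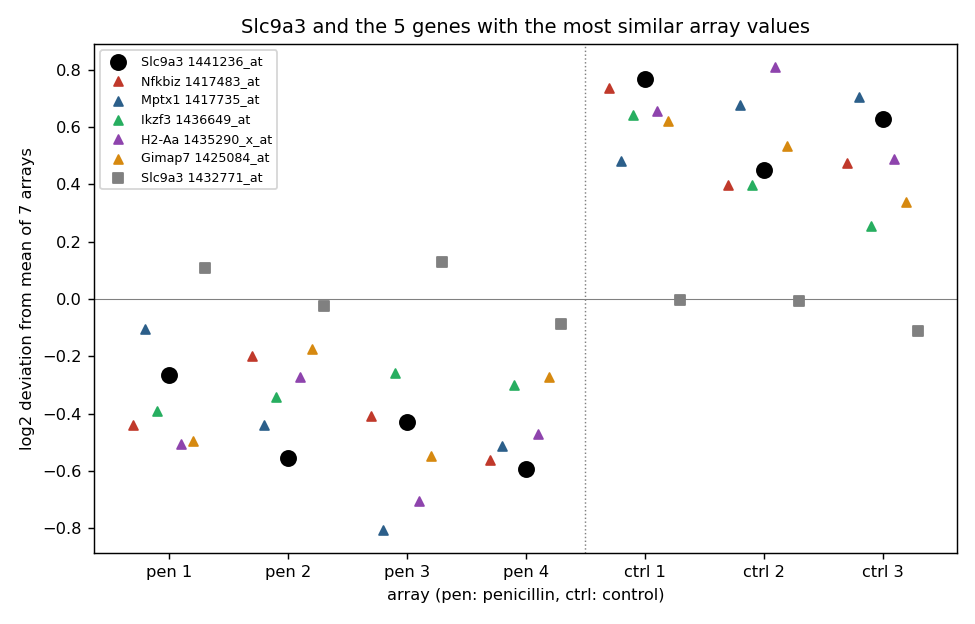
Log2 deviation from the mean over 7 arrays (y axis) in each array (x axis, penicillin left, control right) for both sets of Slc9a3 and the 5 genes nearest to 1441236_at. The 5 genes and 1441236_at are below 0 in the penicillin arrays and above 0 in the control arrays, and 1432771_at (squares) stays near 0 in both groups.

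Other genes of intestinal salt transport were listed by function, 50 in all, of which 43 had a probe set of their own, 79 sets together. None of the 79 was called in limma in either direction, and 9 had an unadjusted p under 0.05, 8 with a higher and 1 with a lower mean in penicillin mice. Over all probe sets 9.11% had such a p, so this count is near the background. Their median difference was 0.0076. Groups did not overlap in 6 sets with penicillin above and in 2 with penicillin below, where all probe sets gave 3.77% and 3.96%.

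By function, the medians of the 7 groups of genes lay between -0.059 for 10 sets of chloride and basolateral potassium channels and 0.056 for 13 sets of PDZ and ezrin scaffolds. The scaffold sets were lowest in control replicate 3 in 8 of 13, and their median without that array was -0.016.

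The positive differences of highest value stood in genes that were lowest in control replicate 3. Guca2b, uroguanylin, a peptide that signals salt load in the gut, was at 12.56, 12.60, 12.90 and 12.68 in penicillin mice and at 12.31, 12.35 and 11.38 in control mice. All penicillin mice were above all control mice. The difference was 0.67 ± 0.22 (SE; limma adjusted p = 0.494), and 0.36 ± 0.099 without control replicate 3. Pdzk1, a PDZ scaffold of the brush border, differed by 0.66 ± 0.37 (SE; limma adjusted p = 0.603), and by 0.13 ± 0.15 without control replicate 3, which was at 9.43 against 10.83 to 11.37 in the other arrays. Ezr, ezrin, which links NHERF scaffolds to actin, differed by 0.36 ± 0.13 and, without that array, by 0.21 ± 0.083 (SE). Sgk1, a kinase that promotes sodium uptake, differed by 0.45 ± 0.18, and Prkg2, a cGMP-dependent kinase that inhibits NHE3, by 0.38 ± 0.12 (SE). Without control replicate 3 they differed by 0.20 and 0.25.

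Among anion exchangers Slc26a4 (pendrin), at a mean of 5.36 ± 0.13 in penicillin mice (SD, n = 4) and 4.97 ± 0.16 in control mice (SD, n = 3), differed by 0.39 ± 0.097 (SE; limma adjusted p = 0.361), and by 0.31 without control replicate 3. Slc4a4, a sodium bicarbonate cotransporter, differed by 0.10 ± 0.12 (SE), and by -0.032 ± 0.089 without control replicate 3, its lowest array. Of the other sodium-hydrogen exchangers and cofactors, Slc9a8 differed by -0.13 ± 0.067 (SE) in its highest set, 1454865_at. Its other sets went both ways, at 0.12 (1426274_at, and -0.0055 without control replicate 3), -0.13 (1430932_at) and 0.042 (1431205_at). Chp2, a calcineurin-like protein that binds NHEs, differed by 0.22 ± 0.15 (SE), or 0.070 without control replicate 3. Nr3c2, the mineralocorticoid receptor, differed by 0.22 ± 0.091 (SE), and by 0.13 ± 0.076 without control replicate 3.

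Fxyd5, an FXYD protein that associates with the sodium pump, had the lowest difference of the transport list with all arrays, at -0.42 ± 0.13 (SE; limma adjusted p = 0.449). It read 6.52, 6.46, 5.98 and 6.37 in penicillin mice and 6.64, 6.83 and 6.81 in control mice. All penicillin mice were below all control mice, and the difference was -0.40 without control replicate 3. In that fit 1 set of Slc26a2, 1421145_at, was lower, at -0.46. Its brighter sets, 1443882_at and 1427195_at, differed by -0.25 and -0.28 there, and by -0.054 and -0.078 with all arrays. Control replicate 3 was the lowest array in each Slc26a2 set, and none of them was called in either fit. Fxyd4 differed by 0.12 ± 0.068 (SE). The chloride channels Clcn2 and Best2 differed by 0.20 ± 0.15 and 0.12 ± 0.074 (SE), and Clcn2 by 0.014 without control replicate 3.

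**Figure D5:**
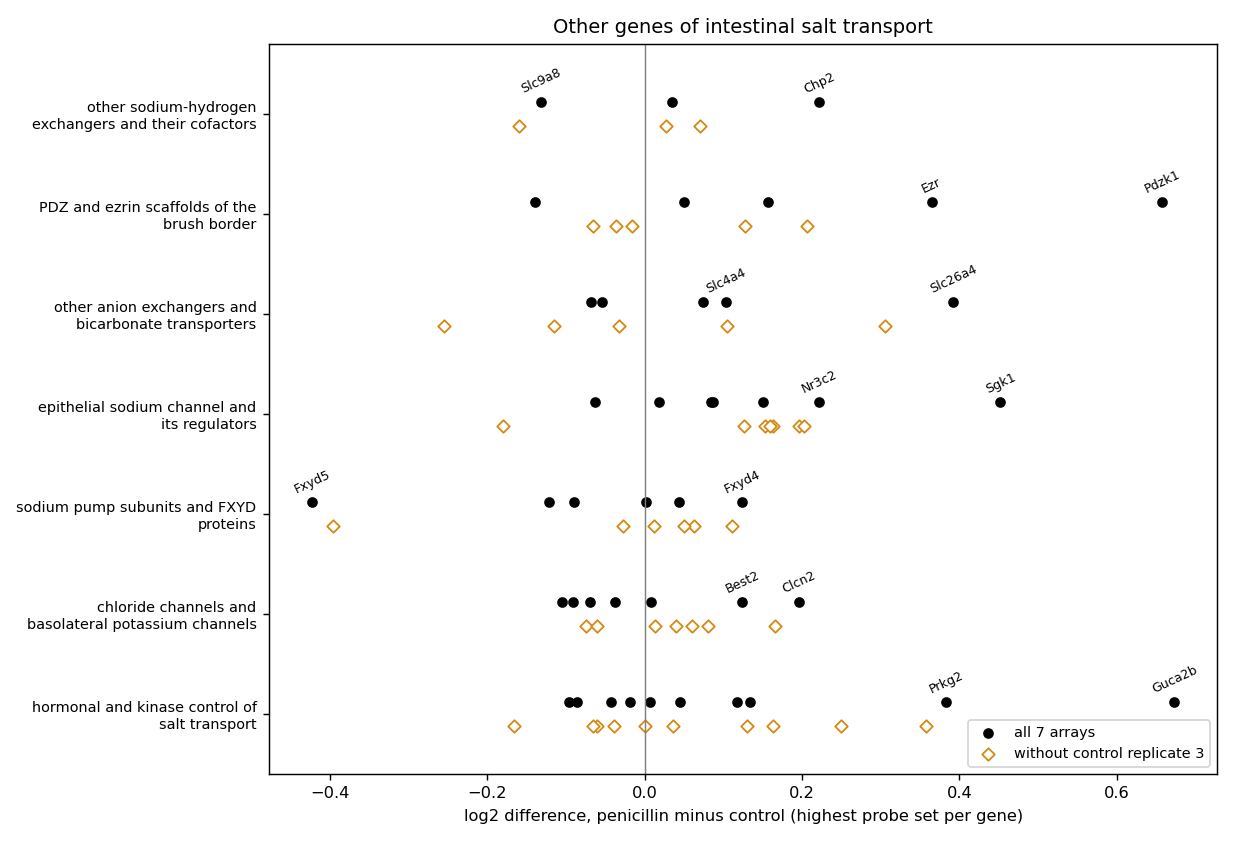
Log2 difference, penicillin minus control (x axis), of 43 other salt transport genes in 7 groups by function (rows), each gene in its set with the highest mean, with all arrays (filled) and without control replicate 3 (open). Pdzk1 is at 0.66 with all arrays and 0.13 without that array, and Fxyd5 is at -0.42 and -0.40.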

How the data were processed

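RNA from terminal ileum of 4 penicillin and 3 control mice was hybridised to Affymetrix mouse arrays. The authors deposited log2 values, 1 for each probe set and array. The submitters' processing notes name RMA and affy, while versions and genome build were not given in the sources used. RMA brings the arrays to a common distribution, and it gives no detection call. Values lay between 2.50 and 14.7, array medians between 5.43 and 5.45, and arrays correlated with r of 0.992 to 0.998. Depth does not apply to arrays, and their number limits the precision.

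Probe sets were named from GEO's platform annotation, in which 34958 probe sets had 1 gene, 932 several and 9211 none. After 64 control sets were removed, 34945 were tested without a filter, and 34741 of them matched a RefSeq gene table. Penicillin was compared with control in limma 3.58.1 (R 4.3.3; lmFit, eBayes, two-sided, Benjamini-Hochberg). The fit was tested on simulated data. Members, lists and tests were chosen with earlier results of these data known. In each group of the transport list the text names the 2 genes with the largest difference, taken in the set with the highest mean per gene where that is above the 25th percentile, and any called gene. Another set of a gene can differ more, as 1 of Slc26a2 did (-0.24, and -0.46 without control replicate 3, its lowest array). Wnk1, Guca2a and other unnamed genes are counted only. The labels do not say that replicate numbers pair the arrays. Deviations of arrays with the same number correlated at -0.111, 0.00503 and -0.382, and 3 such values cannot settle it. Alternatives were other scaling, filters, units of testing, priors, array weights, a block and left-out arrays. Figures used matplotlib 3.10.9 in Python 3.11.15.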

Additional observations from a re-analysis of the deposited data

Results flagged for a closer look

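In the penicillin group single mice were tested for a value far from the other 3 (Dixon's test). Of 35 probe sets tested 5 stood out, and chance alone gives about 1 in 20 for independent sets. Sets of the same gene, such as those of Atp1b1, are not independent, so no excess is read from this count. Penicillin replicate 3 was at 13.62 for Atp1b1 1423890_x_at, where the others lay at 13.50, and at 13.37 for Atp1b1 1451152_a_at, where the others lay between 13.27 and 13.28. For Clcn2 1449248_at it was at 8.93, against 8.61 to 8.62. Penicillin replicate 1 was at 10.79 for Slc12a2 1448780_at, against 10.50 to 10.54 in the others. It was at 3.40 for Cftr 1427767_a_at, against a tied 3.31 in the others, near the bottom of the scale. The control group, with 3 mice, was not tested in this way.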

How the results depend on the processing

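The difference of Slc9a3, taken as 1441236_at or as both sets averaged, was negative in all 17 alternatives, from -1.16 to -0.50. It was called in 7 of them. The value of -0.50 is that of both sets averaged. Where 1441236_at was fitted by itself, its difference lay between -1.16 and -0.999. The other set, 1432771_at, had a positive difference in each of the 13 alternatives that fitted it, from 0.0043 to 0.11, and was called in 0. Slc9a3 was selected on this contrast, so these values are a description. The fit with all arrays called 16 probe sets, 1 of them a member. With the probe sets of a gene averaged 7 genes and 0 members were called, and with the arrays numbered 3 of both groups left out 0 and 0 (3061 at an unadjusted p under 0.05). Leaving out single arrays gave 1 to 22 called probe sets and 0 called members. With 1 array left out, Slc9a3 1441236_at had a limma adjusted p between 0.0654 and 0.180. With the replicate number as a block 0 probe sets and 0 members were called (1988 at an unadjusted p under 0.05). In that fit Slc9a3 1441236_at differed by -1.03, and the labels give no reason to pair the arrays. No probe set of the transport list was called in any of the 17 alternatives, while between 1524 and 4627 of all features tested had an unadjusted p under 0.05. Leaving out control replicate 3 changed the sign of Slc9a3r1 1450982_at and of 4 sets of Atp1b1 among the members. Among the named transport genes, each in its set with the highest mean, the sign changed for Slc4a4 (-0.032). A dimmer set of Slc9a8, 1426274_at, went from 0.12 to -0.0055. With 3 control and 4 penicillin mice, small differences such as those of the other members could not be told from the spread between mice.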
